A study of Mus musculus with 4 samples.

Results

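The 6 genes that help set how many osteoclasts form, Csf1, Il34, Tnfsf11, Tnfrsf11a, Tnfrsf11b and Spp1, were followed in single cells of mouse gingiva, the soft tissue that seals the teeth. They were taken by symbol from the count matrices of 4 libraries, and all 6 members were found among 32245 gene symbols. The groups were diseased gingiva treated with metformin, diseased gingiva without the drug, gingiva treated with metformin without disease, and healthy gingiva. Metformin lowers blood glucose, and prevention of periodontal disease was the stated interest. The tissue was cut from the neck of the gingiva in the upper jaw, digested with collagenase and strained. Strain, age and number of mice, how they were made diseased, and how much metformin they had are not given in the sources used here.

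Osteoclasts are the cells that resorb bone, and they arise from cells of the macrophage lineage. Their precursors need a signal through the receptor CSF1R, given by CSF1 or by IL-34, and a signal through the receptor RANK (Tnfrsf11a), given by RANKL (Tnfsf11). Osteoprotegerin (Tnfrsf11b) is a soluble decoy that binds RANKL and keeps it from RANK, and osteopontin (Spp1) is a matrix protein to which osteoclasts attach. In periodontitis, loss of the bone that holds the teeth is known to follow a shift of this balance towards RANKL.

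Each group was 1 library, so there was no replicate check, no test was made, and every interval below is a 95% interval that covers counting error only. UMIs are unique molecular identifiers, each counting 1 RNA molecule, and a level is given in CPM, the UMIs of a gene per 1000000 UMIs of the cells summed. Intervals treat UMIs as independent draws and are too narrow where a few barcodes (droplets called as cells) hold most UMIs of a gene. A comparison counted a gene as measured from 20 UMIs over the 2 libraries upward, and as higher or lower from a 1.5-fold difference in level upward. The libraries held 12507787 to 22333858 UMIs in 1616 to 2814 barcodes, of which 1654 cells with disease and metformin, 1692 with disease, 2476 with metformin and 1307 of healthy gingiva were kept. Median depth was 1715 to 1950.5 UMIs a cell, and 8 barcodes were found in 2 libraries; no call of a member in the 4 comparisons changed without them. All 18 keratinocyte markers were detected in every library, and the 22 salivary gland markers together were at 60098 to 145953 CPM, so the gingiva libraries also held gland cells. Cells without any mitochondrial UMI were 33.1% with disease and metformin, 21.5% with disease, 32.1% with metformin and 29.6% in healthy gingiva, and their part in the results was not tested.

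Over all cells of a library, Csf1 and Spp1 were highest in the disease library, Tnfsf11 was found in the libraries with disease and in no cell of the others, and Tnfrsf11a ranged from 9.65 to 14.7 CPM. In disease against healthy gingiva, 3 of the 5 measured members (Csf1, Tnfrsf11b and Spp1) were higher and none was lower, where 15.3% of 14479 measured genes were higher and 6.31% lower. In disease with metformin against disease, 3 of 5 (Csf1, Il34 and Spp1) were lower and none was higher, where 24.7% of 14381 genes were lower and 8.38% higher. These comparisons share the disease library, and the members were chosen with earlier results of these data known. The median log2 ratio of the 5 members was 0.87 for disease against healthy gingiva and −0.80 for disease with metformin against disease, beside 0.15 and −0.24 over all measured genes.

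In metformin against healthy gingiva, 1 of 5 measured members was higher (Spp1) and 1 lower (Tnfrsf11b), where 9.59% of 14790 genes were higher and 11% lower. In disease with metformin against metformin alone, 2 of 5 were higher (Tnfrsf11a and Tnfrsf11b) and 2 lower (Il34 and Spp1), where 11.6% of 14678 genes were higher and 15.5% lower. The interval of the Il34 call reaches past 0, with a log2 ratio of −0.62 (−1.28 to 0.01) that became 1.33 with classes weighted equally and fell short of 1.5-fold under 2 other alternatives. Tnfsf11 did not reach 20 UMIs in any comparison and is in none of these counts.

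**Figure D1:**
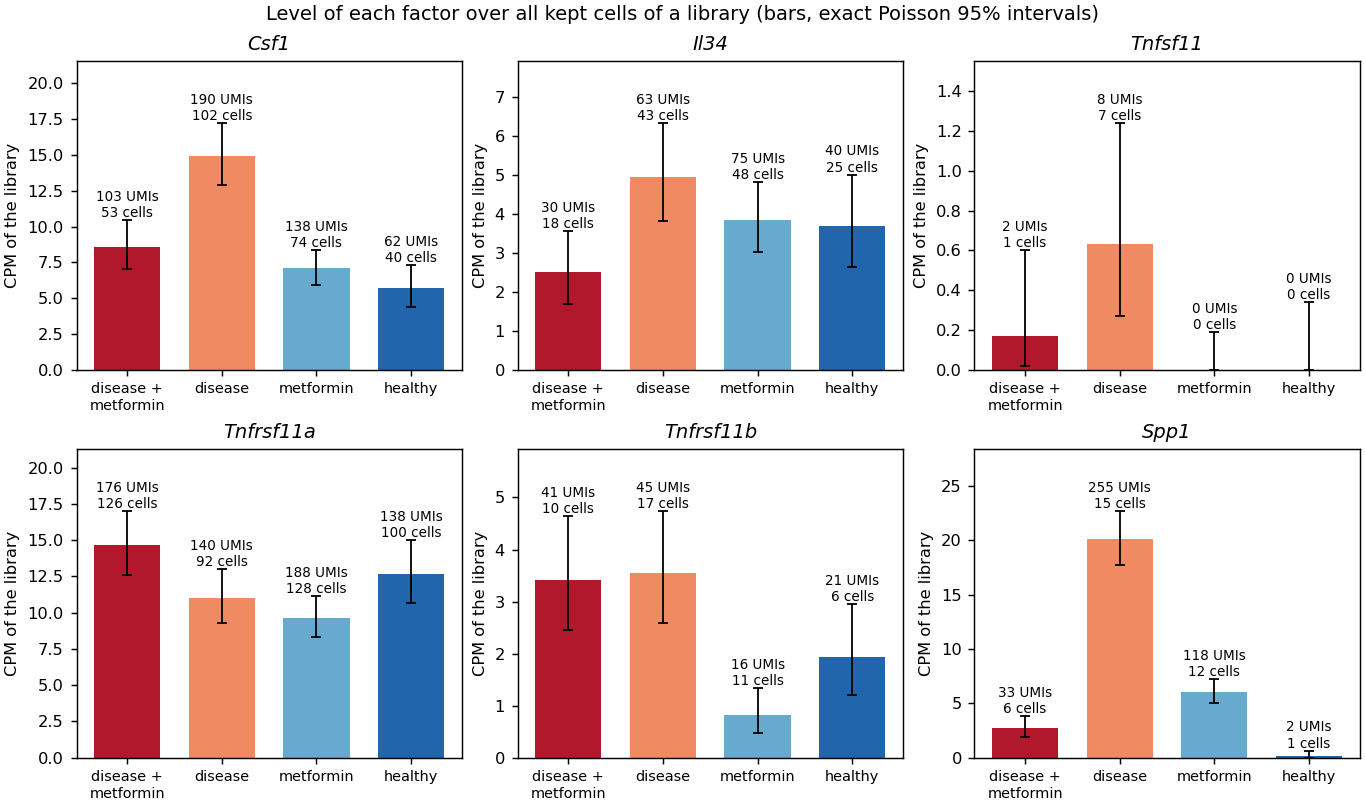
Level of each of the 6 genes over all kept cells of a library, in CPM on a linear axis; bars are single libraries, whiskers exact Poisson 95% intervals, and the UMIs and the cells with a UMI stand above. Csf1 and Spp1 were highest in the disease library (190 and 255 UMIs), Tnfsf11 had UMIs in both libraries with disease, and Tnfrsf11a ranged only from 9.65 to 14.7 CPM.

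The cells that held these UMIs were described from clusters built without the 6 genes, so a class was not defined by them. Names ending in "-like" come from marker lists, and clusters that met no definition are called by their leading gene. The leukocyte-like class is the exception: that cluster met no single definition, its best and next-best lists were both of immune cells, and its parts were named after a second clustering. Clusters under 20 cells carry no name. The factors differed in the class that held most of their UMIs. Csf1 came mostly from an unnamed cluster led by Cnn1 and from fibroblast-like cells, Il34 from keratinocyte-like and pericyte-like cells, Tnfsf11 from T and NK-like cells and Tnfrsf11a from gland-like cells. Tnfrsf11b came mostly from 1 small unnamed cluster, and Spp1 from macrophage-like and Schwann-like cells.

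**Figure D2:**
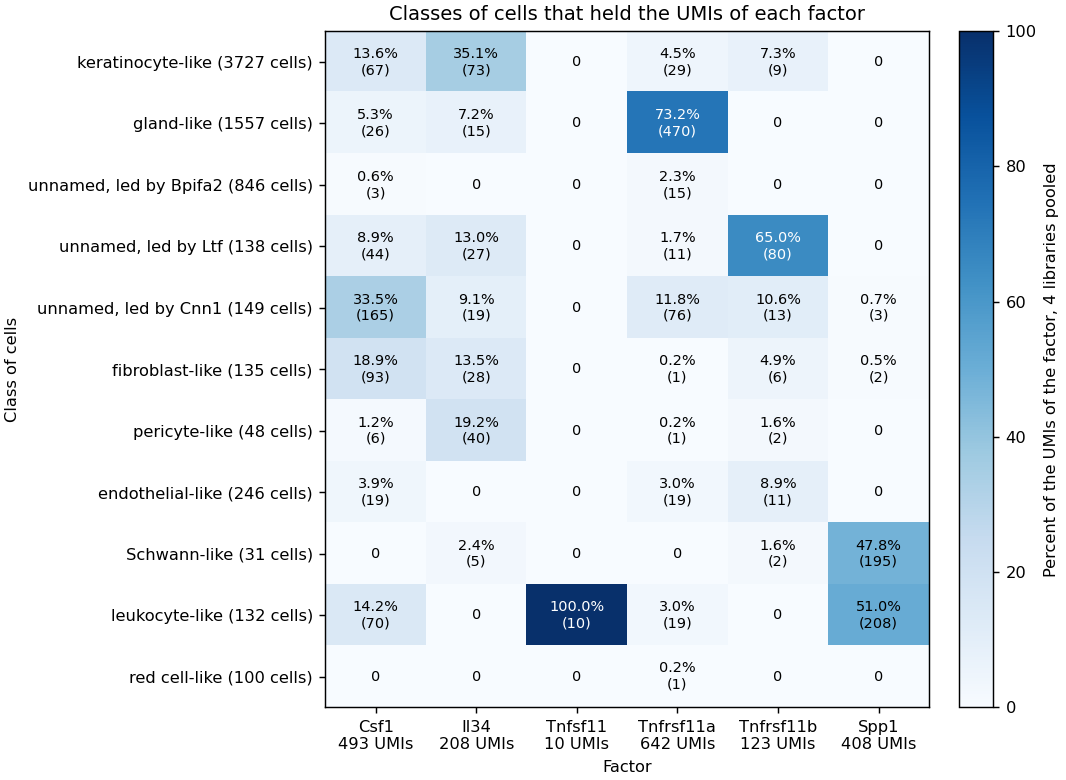
Percent of the UMIs of each gene held by each class of cells, 4 libraries pooled, with UMIs in brackets; darker blue is a larger share. All 10 Tnfsf11 UMIs lay in leukocyte-like cells, 73.2% of Tnfrsf11a UMIs in gland-like cells, and Spp1 was split between leukocyte-like (51.0%) and Schwann-like cells (47.8%).

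Csf1, the macrophage colony-stimulating factor (GRCm38, chr3:107741048-107760469, minus strand), had 493 UMIs in 269 cells. It had 103 UMIs in 53 cells with disease and metformin, 190 in 102 with disease, 138 in 74 with metformin and 62 in 40 of healthy gingiva. Those counts are 8.59 CPM (7.01 to 10.4) with disease and metformin, 15.0 (12.9 to 17.2) with disease, 7.08 (5.95 to 8.36) with metformin and 5.71 (4.38 to 7.32) in healthy gingiva. The disease library stood above the other 3, whose neighbours in order have overlapping intervals. The log2 ratio was 1.39 (0.97 to 1.83) for disease against healthy gingiva and −0.80 (−1.16 to −0.45) for disease with metformin against disease. For metformin against healthy gingiva it was 0.31 (−0.13 to 0.77), and no barcode held over 8.74% of the Csf1 UMIs of its library.

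By class, over the 4 libraries pooled, the Csf1 level was highest in a cluster led by Cnn1, a contractile protein of smooth muscle. Mylk, Actg2 and Myh11 were also among its leading genes, beside Rgs6, Ecrg4, Rtn1 and Pcp4. The cluster met no class definition. Its best list was fibroblast, with 5 of 12 markers raised (a share of 0.42), and pericyte and smooth muscle came next (0.4). This cluster held 33.5% of all Csf1 UMIs, 165 in 149 cells, at 139.7 CPM over the 4 libraries (84.1 to 305.4 in single libraries). With coarser clustering (resolution 0.5 in place of 1) there was no Cnn1-led cluster, and the cluster led by Ltf held 42.4% of Csf1 UMIs. Fibroblast-like cells followed at 94.7 CPM (88.9 to 113.7 in the 3 libraries with at least 20 cells) and leukocyte-like cells at 94.1 CPM (5.96 to 159.0). The library ranges of these 3 classes overlap, though the pooled interval of the Cnn1-led cluster (119.2 to 162.8) lies above that of fibroblast-like cells (76.5 to 116.1). Of these 3 classes, the Cnn1-led cluster was highest only with disease and metformin (305.4 CPM). Leukocyte-like cells were highest in disease and with metformin (159.0 CPM with metformin), and fibroblast-like cells in healthy gingiva (113.7 CPM). The cluster led by Ltf (30.5 CPM), endothelial-like cells (28.0) and pericyte-like cells (20.0) came next with overlapping intervals. Keratinocyte-like cells were at 2.66 CPM and gland-like cells held 26 UMIs in 1557 cells. Red cell-like barcodes, which should lack the gene, held none in 100 cells at a median depth of 11950.5 UMIs, while 78 of 149 Cnn1-led cells (52.3%) had a UMI at a median depth of 5947. Stray RNA in the barcodes was not measured, and these counts do not measure it.

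The difference in Csf1 between the disease and healthy libraries was larger over all cells than inside the Cnn1-led and fibroblast-like cells. Within classes of at least 20 cells in both libraries, 33 member comparisons were measured, of which 11 were higher and 8 lower by the same rule; over the same class comparisons a mean of 17.7% of all measured genes were higher and 18.8% lower. These 33 share cells and libraries. In fibroblast-like cells Csf1 was at 105.5 CPM in disease (40 UMIs, 59 cells) and 113.7 CPM in healthy gingiva (14 UMIs, 20 cells), and the log2 ratio was −0.11 (−1.02 to 0.88). The Cnn1-led cluster had 114.1 CPM in disease (58 UMIs, 62 cells) and 84.1 CPM in healthy gingiva (21 UMIs, 24 cells), and the log2 ratio was 0.44 (−0.30 to 1.23). Beside these levels, fibroblast-like cells made up 3.49% of cells in disease and 1.53% in healthy gingiva, and Cnn1-led cells 3.66% in disease and 1.84% in healthy gingiva. In bulk sums of a library, more cells of a class and more RNA per cell cannot be told apart. The part of these shares in the difference over all cells was not tested; with every class weighted equally the log2 ratio was 0.82.

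Leukocyte-like cells showed a larger difference. They held 35 Csf1 UMIs in disease (52 cells, 136.3 CPM) and 2 in healthy gingiva (22 cells, 17.0 CPM), a log2 ratio of 3.01 (1.05 to 6.11), where 25.5% of 3136 genes measured in that class were higher. They held 1 UMI with disease and metformin (28 cells) and 32 with metformin alone (30 cells). The log2 ratio of disease with metformin against disease was −4.51 (−9.86 to −1.94), where 21.1% of 3558 genes were lower. Most of these UMIs lay in few cells. A neutrophil-like sub-cluster led by Retnlg, a gene of mature neutrophils, held 49 in 10 of its 17 cells, 17 UMIs in disease, 31 with metformin and 1 in healthy gingiva, and it had no cell from disease with metformin. The other neutrophil-like sub-cluster, led by the granule gene Ngp, had no Csf1 UMI in 18 cells, and macrophage-like cells had 18 UMIs in 3 disease cells.

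For disease with metformin, the direction of Csf1 depended on where it was read. Over all cells it was lower than in disease, but in the Cnn1-led cluster it was at 305.4 CPM with disease and metformin (61 UMIs, 33 cells) and 114.1 CPM in disease, a log2 ratio of 1.42 (0.88 to 1.96), where 28.7% of 5451 genes of that cluster were higher. Against metformin alone (112.1 CPM, 25 UMIs, 30 cells) it was 1.45 (0.75 to 2.18), where 22.4% of 3935 genes were higher. No barcode held over 14.8% of the 61 UMIs. A Csf1 UMI was seen in 69.7% of Cnn1-led cells with disease and metformin, 48.4% with disease and 46.7% with metformin. Thinned to 1000 UMIs a cell, 8 of 32 cells with disease and metformin (25%, 11.5 to 43.4%) had one. With disease 4 of 61 had one (6.56%, 1.82 to 15.9%) and with metformin 5 of 27 (18.5%, 6.30 to 38.1%). In healthy gingiva 2 of 23 had one (8.70%, 1.07 to 28.0%), and these intervals overlap. Fibroblast-like cells were 10 in number with disease and metformin and held 3 Csf1 UMIs, too few to compare. With every class weighted equally the log2 ratio over all cells was 0.31, a sign opposite to that of the whole library.

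**Figure D3:**
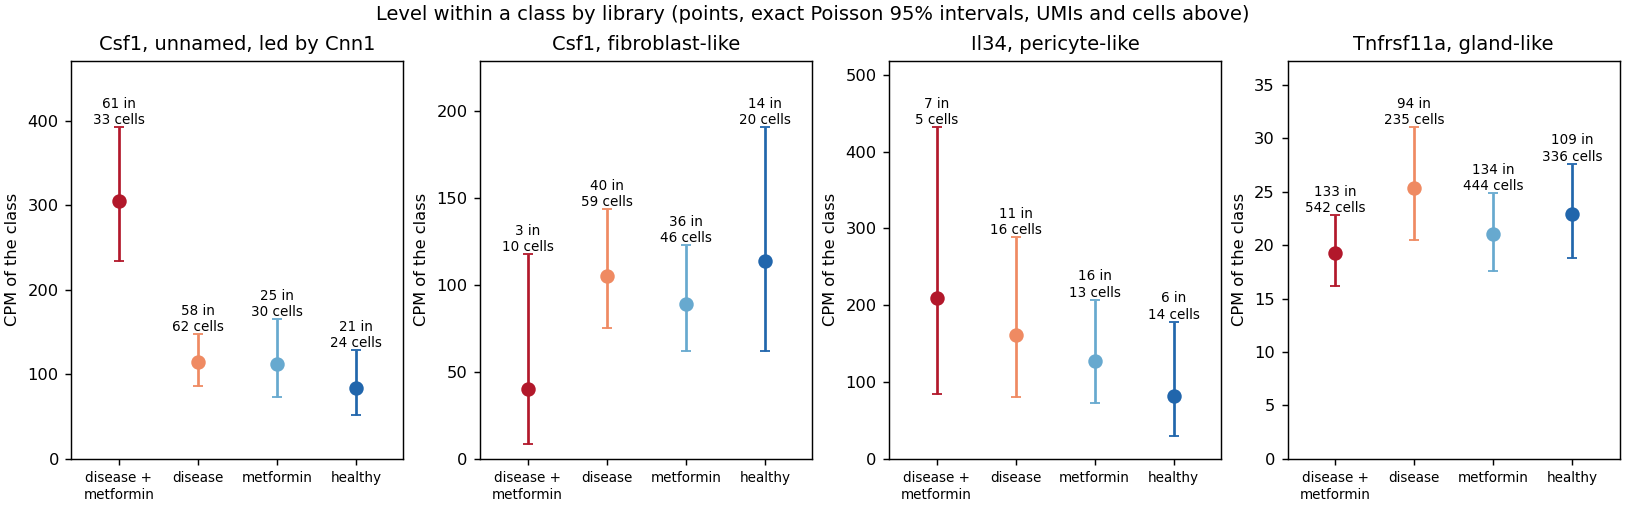
Level of Csf1, Il34 and Tnfrsf11a within the classes that held them, in CPM of the class on a linear axis; points are single libraries with exact Poisson 95% intervals, and UMIs and cells stand above. Csf1 in the Cnn1-led cluster was highest with disease and metformin (305.4 CPM), Csf1 in fibroblast-like cells lay between 88.9 and 113.7 CPM in the other 3 libraries, and Tnfrsf11a in gland-like cells lay between 19.3 and 25.3 CPM.

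Il34, the second ligand of CSF1R and known in skin for keeping Langerhans cells alive (chr8:110741829-110805924, minus strand), had 208 UMIs in 134 cells. The gene overlaps Gm15894 and Gm15895 on the opposite strand, and whether counting used strand was not given in the sources used here. Nor is it given whether intronic reads were counted, which bears on what every UMI level here includes. It had 30 UMIs in 18 cells with disease and metformin, 63 in 43 with disease, 75 in 48 with metformin and 40 in 25 of healthy gingiva. Levels were 2.50 CPM (1.69 to 3.57) with disease and metformin, 4.96 (3.81 to 6.35) with disease, 3.85 (3.03 to 4.82) with metformin and 3.68 (2.63 to 5.01) in healthy gingiva. The library with disease and metformin was lowest, and its interval overlapped those of metformin and healthy gingiva but not that of disease. The other 3 had overlapping intervals. Against disease, the log2 ratio of disease with metformin was −0.99 (−1.67 to −0.34), and −0.12 with classes weighted equally.

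Pericyte-like cells, which wrap small vessels, had the highest Il34 level, 133.3 CPM, with a UMI in 21 of 48 cells. They were at 209.5 CPM with disease and metformin (7 UMIs, 5 cells), 161.5 with disease (11 UMIs, 16 cells), 127.7 with metformin (16 UMIs, 13 cells) and 82.1 in healthy gingiva (6 UMIs, 14 cells). The intervals of the 4 libraries overlap, and each had fewer than 20 cells of the class. Next in order were Schwann-like cells at 49.8 CPM from 5 UMIs, fibroblast-like cells at 28.5, Ltf-led cells at 18.7 and Cnn1-led cells at 16.1, each overlapping the next. Leukocyte-like, endothelial-like and red cell-like cells had no Il34 UMI.

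Keratinocyte-like cells held the most Il34 UMIs, 73 or 35.1%, at the low level of 2.90 CPM over 3727 cells. They were at 1.08 CPM with disease and metformin (4 UMIs), 2.16 with disease (14), 3.09 with metformin (32) and 4.92 in healthy gingiva (23). Disease against healthy gingiva gave a log2 ratio of −1.19 (−2.26 to −0.17), where 6.46% of 11694 genes of the class were lower, so Il34 in this epithelium was lower in disease while the whole library was not. The UMIs were uneven within the class. A cluster of 83 cells led by Sprr2d and Odam, a gene of the epithelium that attaches to the tooth, was at 62.5 CPM, a cluster of 148 cells led by Cryba2 at 21.3, one of 304 cells led by Serpinb3a at 9.17, and the 1036 cells of the cluster led by Gpha2 held 1 UMI. Of the 17 UMIs in the Sprr2d-led cluster, none was in 14 cells with disease and metformin, 2 in 29 with disease, 5 in 31 with metformin and 10 in 9 of healthy gingiva.

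Tnfsf11, which encodes RANKL (chr14:78277445-78308043, minus strand), was the scarcest member, with 10 UMIs in 8 cells of 7129. It had 2 UMIs in 1 cell with disease and metformin and 8 UMIs in 7 cells with disease, with none in 2476 metformin and 1307 healthy cells. Taking 3 counts as the limit that a count of 0 allows, up to 0.121% of metformin cells and 0.230% of healthy cells could hold a UMI, which limits cells with a UMI and not cells that express the gene. All 8 cells lay in the T and NK-like sub-cluster of the leukocytes, and 7 of them also had UMIs of CD3 chains or Trac, parts of the T cell receptor complex. That sub-cluster had 11 cells with disease and metformin, 13 with disease, 3 with metformin and 3 of healthy gingiva. A UMI was in 1 of the 11, 7 of the 13 and none of the others. The part of these cell numbers in where Tnfsf11 was found was not tested. The 135 fibroblast-like cells held no Tnfsf11 UMI, which allows up to 3.06 CPM.

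**Figure D4:**
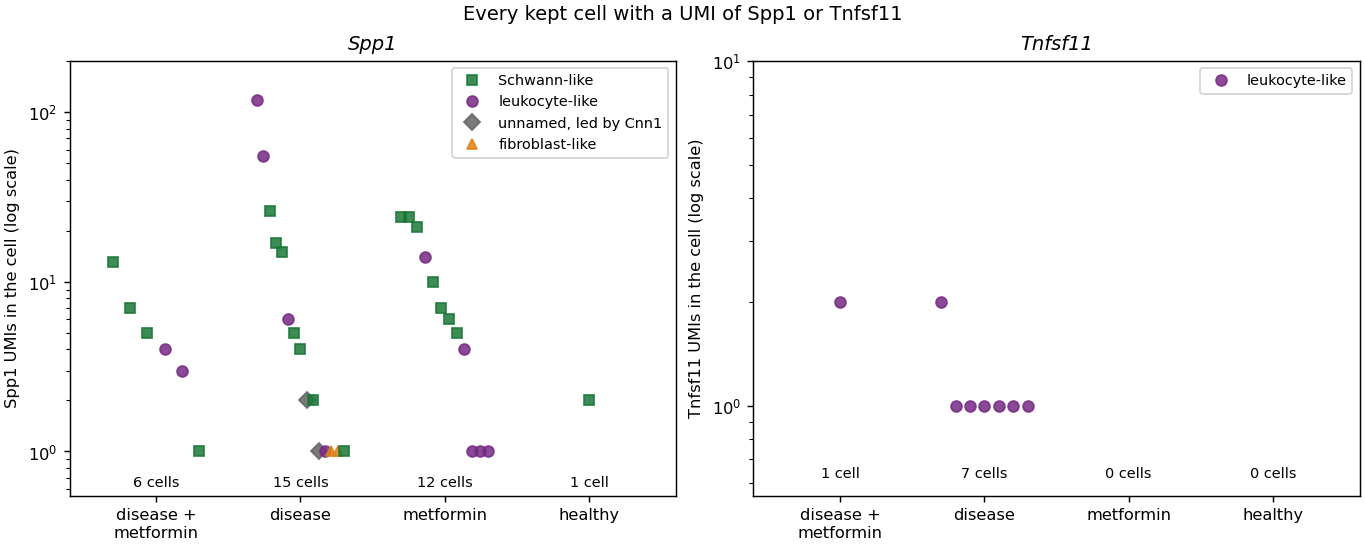
Every kept cell with a UMI of Spp1 (left) or Tnfsf11 (right), by library; the vertical axis is the number of UMIs of the gene in that cell on a log scale, and colour and shape give the class. Of the 15 Spp1 cells in disease, 2 leukocyte-like cells held 118 and 55 UMIs, and the Tnfsf11 cells were leukocyte-like and held 1 or 2 UMIs each.

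Tnfrsf11b, the decoy receptor osteoprotegerin (chr15:54250619-54278484, minus strand), had 123 UMIs in 44 cells. It had 41 UMIs in 10 cells with disease and metformin (3.42 CPM), 45 in 17 with disease (3.54), 16 in 11 with metformin (0.821) and 21 in 6 of healthy gingiva (1.93). Both libraries with disease were higher than those without, though the intervals of disease (2.59 to 4.74 CPM) and healthy gingiva (1.197 to 2.95) overlap, and single barcodes held 56.1% of the UMIs with disease and metformin, 31.1% with disease and 66.7% in healthy gingiva. The log2 ratio of disease against healthy gingiva was 0.87 (0.10 to 1.70), 1.93 without the top barcode of each library, and 0.24 with every cell weighted equally, which ends the call. For metformin against healthy gingiva it was −1.24 (−2.27 to −0.23), and 0.16 without the top barcodes, which ends that call.

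The cluster led by Ltf, the iron-binding secretory protein lactoferrin, held 80 of the 123 Tnfrsf11b UMIs (65.0%) in 15 of its 138 cells. Sftpd, Alox12e and Prss22 were also among its leading genes, and it met no class definition. When each cell was named by its own markers instead, keratinocyte-like cells held 52.8% of Tnfrsf11b UMIs. Its UMIs were 35 with disease and metformin (4 cells with a UMI), 26 with disease (7 cells), 3 with metformin (2 cells) and 16 in healthy gingiva (2 cells). Gland-like, leukocyte-like and red cell-like cells had no Tnfrsf11b UMI, and fibroblast-like cells had 6. Of the summed UMIs of Tnfsf11 and Tnfrsf11b, those of Tnfsf11 were 2 of 43 with disease and metformin (4.65%), 8 of 53 with disease (15.1%, Clopper-Pearson 6.75% to 27.6%), 0 of 16 with metformin and 0 of 21 in healthy gingiva. The intervals of the 4 libraries overlap, and no cell had UMIs of both genes.

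Tnfrsf11a, which encodes RANK (chr1:105780718-105847981, plus strand), was the member with the most UMIs, 642 in 446 cells, and varied least between libraries. It had 176 UMIs in 126 cells with disease and metformin, 140 in 92 with disease, 188 in 128 with metformin and 138 in 100 of healthy gingiva. Levels were 14.7 CPM (12.6 to 17.0) with disease and metformin, 11.0 (9.28 to 13.01) with disease, 9.65 (8.32 to 11.1) with metformin and 12.7 (10.7 to 15.0) in healthy gingiva. The log2 ratio reached 1.5-fold only for disease with metformin against metformin, 0.61 (0.30 to 0.91). That call was lost with only barcodes holding Malat1 and mitochondrial UMIs (0.53), with every cell weighted equally (0.53) and with every class weighted equally (0.34). It was −0.20 (−0.55 to 0.15) for disease against healthy gingiva, and −0.82 with every cell weighted equally. For disease with metformin against disease it was 0.41 (0.08 to 0.74), 0.94 with every cell and 1.02 with every class weighted equally, and both alternatives exceed 1.5-fold.

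RANK transcript in these libraries lay mostly outside the blood lineage. Gland-like cells held 470 UMIs (73.2%), in 318 of 1557 cells (20.4%) at a median depth of 6416 UMIs, while 1 of 100 red cell-like barcodes had a UMI. Stray RNA was not measured here either. In gland-like cells the level was 19.3 CPM with disease and metformin (542 cells), 25.3 with disease (235), 21.0 with metformin (444) and 22.9 in healthy gingiva (336), and the 4 log2 ratios lay between −0.40 and 0.15. The gland share of cells was 32.8% with disease and metformin, 13.9% with disease, 17.9% with metformin and 25.7% in healthy gingiva; its part in the level over all cells was not tested. Within the class, the cluster led by Dpp6 and Ptprn2 was at 35.7 CPM (31.0 to 40.8) and the one led by Lipf and Spink4 at 17.5 (15.3 to 20.0). In the Dpp6-led cluster, disease with metformin was at 28.8 CPM (192 cells) and disease at 44.3 CPM (87 cells), a log2 ratio of −0.62 (−1.15 to −0.09), where 8.55% of 9150 genes of that cluster were lower.

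Over the 4 libraries pooled, the Cnn1-led cluster had the highest Tnfrsf11a level, 64.4 CPM, with a UMI in 49 of 149 cells. Its library range overlaps that of endothelial-like cells (13.03 to 86.2 CPM), and in the disease library leukocyte-like cells (38.95 CPM from 10 UMIs) were above it. It was at 115.2 CPM with disease and metformin (23 UMIs), 35.4 with disease (18), 94.1 with metformin (21) and 56.1 in healthy gingiva (14). The log2 ratio of disease with metformin against disease was 1.70 (0.75 to 2.68). Csf1 was also higher in this cluster and comparison, where 28.7% of 5451 genes were higher. Endothelial-like cells (28.0 CPM), leukocyte-like cells (25.5) and gland-like cells (21.6) followed with overlapping intervals, and fibroblast-like cells held 1 UMI. Among all cells, 63 had UMIs of both Csf1 and Tnfrsf11a.

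In leukocyte-like cells, where osteoclast precursors would lie, Tnfrsf11a had 19 UMIs, 15 of them in 9 of 25 macrophage-like cells. These 15 were 2 with disease and metformin, 8 with disease, 5 with metformin and 0 in healthy gingiva, from 8, 9, 5 and 3 macrophage-like cells. Csf1r, the receptor for both CSF1 and IL-34, had 166 of its 179 UMIs in 34 leukocyte-like cells, and 7 of 132 leukocyte-like cells had UMIs of both Csf1r and Tnfrsf11a. At least 3 of the 8 osteoclast markers were found in 3 of these 132 cells. Dcstamp, needed for the fusion of osteoclast precursors, had all its 60 UMIs in 12 leukocyte-like cells, while Calcr and Oscar had none there and Ocstamp had 3 UMIs in 1 cell. No osteoclast class was found.

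Spp1, osteopontin (chr5:104435118-104441050, plus strand), showed the widest spread between libraries and the fewest source cells after Tnfsf11, 408 UMIs in 34 cells. It had 33 UMIs in 6 cells with disease and metformin, 255 in 15 with disease, 118 in 12 with metformin and 2 in 1 cell of healthy gingiva. Levels were 2.75 CPM (1.90 to 3.87) with disease and metformin, 20.1 (17.7 to 22.7) with disease, 6.05 (5.01 to 7.25) with metformin and 0.184 (0.022 to 0.665) in healthy gingiva. None of these intervals overlap, but they treat the UMIs of few cells as independent draws. The share of cells with a UMI was 0.363% (0.133 to 0.788%) with disease and metformin and 0.887% (0.497 to 1.46%) with disease. It was 0.485% (0.251 to 0.845%) with metformin and 0.0765% (0.0019 to 0.426%) in healthy gingiva. Of these share intervals, only those of disease and healthy gingiva lie apart. The log2 ratio was 6.77 (4.90 to 9.82) for disease against healthy gingiva, −2.87 (−3.44 to −2.34) for disease with metformin against disease, and 5.04 (3.15 to 8.10) for metformin against healthy gingiva. The top barcode held 118 of the 255 disease UMIs (46.3%), and the healthy value rests on 2 UMIs of 1 cell.

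The 250 bases before the Spp1 start are chr5:104434861-104435110 on the plus strand in RefSeq's table (GRCm38.p6), which held 4 of the 6 members. That table lists 2 starts for Spp1, and the window of the other, chr5:104435942-104436191, holds none of the motifs searched. The first window is shown because Spp1 differed most between libraries. Capitals mark the letters TATAAA, from 211 to 206 bases before the start, and AACCACA, a motif of the Runx family, from 129 to 123. Searched on both strands, TATAAA is in 12.4% and AACCACA in 4.40% of all promoters of that length; TGANTCA, the AP-1 motif, in 6.75% and in no member window.
Spp1: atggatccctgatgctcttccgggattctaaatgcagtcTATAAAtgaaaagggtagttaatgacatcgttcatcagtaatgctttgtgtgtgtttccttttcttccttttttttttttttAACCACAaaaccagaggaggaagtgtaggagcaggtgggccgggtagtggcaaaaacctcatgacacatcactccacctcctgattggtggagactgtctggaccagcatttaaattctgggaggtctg

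Spp1 was held by 2 kinds of cells. In Schwann-like cells, the glia that wrap peripheral nerves, it was found in 19 of 31 cells with 195 UMIs, at 1943 CPM. They held 26 UMIs with disease and metformin (6 cells, 1633 CPM), 70 with disease (14 cells, 1999 CPM), 97 with metformin (10 cells, 2109 CPM) and 2 in the single healthy cell (585 CPM). The levels in the first 3 libraries had overlapping intervals, and the healthy library had 1 cell of the class. Leukocyte-like cells held 7 UMIs with disease and metformin (28 cells), 180 with disease (52 cells), 21 with metformin (30 cells) and 0 in healthy gingiva (22 cells).

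Of the leukocyte UMIs, 204 of 208 were in 7 of 25 macrophage-like cells. In disease they lay in 3 of 9 macrophage-like cells, with 118, 55 and 6 UMIs. The cell with 55 had only 858 UMIs in all, so Spp1 made up 64103 CPM of it, and all 3 also had UMIs of C1q genes or Cd68, macrophage markers. With disease and metformin, 2 of 8 macrophage-like cells had 4 and 3 UMIs, with metformin 2 of 5 had 14 and 4, and none of the 3 healthy ones had any. In this class, nearly all of the 179 disease UMIs came from 2 cells. Keratinocyte-like, gland-like, endothelial-like and red cell-like cells held no Spp1 UMI.

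Other genes of the pathway were read from 5 lists, chosen with earlier results of these data known. Their counts stand against the shares of all measured genes. These were 15.3% higher and 6.31% lower for disease against healthy gingiva, and 8.38% higher and 24.7% lower for disease with metformin against disease. They were 9.59% higher and 11% lower for metformin against healthy gingiva, and 11.6% higher and 15.5% lower for disease with metformin against metformin. Among 18 cytokines and signals that raise RANKL or help osteoclasts form, 10 of 14 measured were higher and none lower in disease against healthy gingiva, with a median log2 ratio of 0.86 beside 0.15 over all genes. Il1b, an inflammatory cytokine held almost only by leukocyte-like cells, was at 49.0 CPM in disease and 20.0 in healthy gingiva, and the log2 ratio was 1.29 (1.07 to 1.52). Ccl3, a chemokine of macrophages and neutrophils, was at 8.11 and 1.93 CPM, Pthlh, the parathyroid hormone-like hormone, at 7.48 and 2.85 CPM, and Osm, a cytokine of the IL-6 family, had 31 UMIs in disease and 2 in healthy gingiva. Single barcodes held 39.8% of the Ccl3, 34.7% of the Pthlh and 41.9% of the Osm UMIs in disease. With metformin alone against healthy gingiva, 7 of 16 were higher and none lower, where 9.59% of all genes were higher and 11% lower. Il1b (56.0 and 20.0 CPM), Ccl3, Osm and Wnt5a were among the 7, and both comparisons share the healthy library.

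In disease with metformin against disease, 9 of these 16 genes were lower and 4 higher, with a median of −0.84 beside −0.24. Il1b was at 18.2 CPM with disease and metformin and 49.0 in disease, and Ptgs2, the inducible prostaglandin synthase, had 7 and 44 UMIs. Il17a, the cytokine of Th17 and gamma-delta T cells, had 23 UMIs with disease and metformin and 0 in disease, but all 23 were in 1 barcode. Against metformin alone, disease with metformin had 5 of 16 higher and 7 lower, where 11.6% of all genes were higher and 15.5% lower. Leukocyte-like cells, which held 99.7% of Il1b UMIs, made up 1.69% of cells with disease and metformin, 3.07% with disease, 1.21% with metformin and 1.68% in healthy gingiva, and the part of that share in these values was not tested.

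Among 12 receptors and partners, 3 were higher and 1 lower in disease against healthy gingiva, and 1 higher and 4 lower in disease with metformin against disease. Without the 50 genes with most UMIs in the total, 1 was higher and 1 lower in disease with metformin against disease. Ptprz1, a receptor phosphatase that binds IL-34 and lay mostly in gland-like cells, was at 127.2 CPM with disease and metformin and 69.6 in disease, and at 69.6 in disease and 112.8 in healthy gingiva. Itga4, an integrin chain that binds osteopontin, had 15 UMIs with disease and metformin and 66 in disease. Csf1r was at 4.02 CPM in disease and 2.30 in healthy gingiva, and the log2 ratio was 0.80 (0.09 to 1.56). With metformin against healthy gingiva, 2 of the 12 were higher and 3 lower; with disease and metformin against metformin, 2 were higher and 2 lower.

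Of 20 genes that carry RANK and CSF1R signals, 4 were higher and none lower in disease against healthy gingiva, where 15.3% of all genes were higher, and the median log2 ratio of the list was 0.16 beside 0.15 over all genes. They were Tyrobp (34.0 and 8.01 CPM), Fcer1g, Spi1 and Trem2 (51 and 2 UMIs), the adaptors, a transcription factor and a receptor of myeloid cells. Leukocyte-like cells held 91.2% (Fcer1g) to 98.4% (Trem2) of the UMIs of these 4 genes. That class made up 3.07% of cells in disease and 1.68% in healthy gingiva, and the part of that share was not tested. A single barcode held 45.1% of the 51 Trem2 UMIs. In disease with metformin against disease, 2 were higher and 4 lower, with Tyrobp at 13.7 and 34.0 CPM, Trem2 at 2 and 51 UMIs, and Jun, an AP-1 subunit, at 415.9 and 211.2 CPM. None of the 4 NF-kB subunit genes on the list (Nfkb1, Nfkb2, Rela and Relb) was apart in disease against healthy gingiva. Among 19 measured, 3 were higher and 3 lower with metformin against healthy gingiva, and 2 higher and 1 lower with disease and metformin against metformin.

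Of 14 genes that restrain osteoclasts, 8 were measured, and 4 were higher and 1 lower in disease against healthy gingiva, 1 higher and 6 lower in disease with metformin against disease, 3 higher and 2 lower with metformin against healthy gingiva, and none higher and 4 lower with disease and metformin against metformin. Without the 50 genes with most UMIs in the total, none was higher and 1 lower in disease against healthy gingiva, and 1 higher and 3 lower in disease with metformin against disease. Lgals3, the lectin galectin-3, was at 402.6 CPM with disease and metformin, 622.1 with disease, 707.4 with metformin and 377.9 in healthy gingiva. Sema3a, a semaphorin that protects bone in mice, had 18 UMIs with disease and metformin and 53 with disease.

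Of 13 osteoclast effector genes, 4 of 10 measured were higher in disease against healthy gingiva and none lower, while the median log2 ratio of the list, 0.10, was below that of all genes, 0.15. Ctsk, the collagen-degrading protease of osteoclasts, was at 5.91 CPM in disease and 2.95 in healthy gingiva, but 263 of its 286 UMIs were in fibroblast-like cells. Dcstamp had 24 and 5 UMIs, and 1 barcode held 58.3% of the 24. In disease with metformin against disease, none of 9 was higher and 2 were lower, Ctsk (1.75 and 5.91 CPM) and Atp6v0d2, a subunit of the proton pump, with 0 and 30 UMIs, at least 9.44-fold lower when the 0 is set to 3. With metformin against healthy gingiva, 1 of 7 was higher and 1 lower, and with disease and metformin against metformin 1 of 8 each way.

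Genes whose level ran most like each member were taken over 31 sums of a class in a library with at least 20 cells each. This is a description only, since the sums of a class or of a library share their cells, depth and handling, and pericyte-like and Schwann-like cells were too few to enter. Csf1 was most like Jdp2 (Pearson r 0.91 of log2 of CPM plus 1), Lgals1 and Fam129a. Il34 was most like Nalcn (0.92), Hspb2 and Fzd2, and Tnfrsf11a most like Tes (0.88), Pdgfb and Adgrg1. Tnfrsf11b was most like Cp, the copper carrier ceruloplasmin (0.82), Gprc5b and Tm4sf1, and Spp1 like the leukocyte genes Cd226 (0.89), Selplg and Ccr2.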

How the data were processed

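Single-cell RNA of gingiva was measured in 4 libraries, 1 per group. Per the submitters' processing notes, reads were converted with bcl2fastq and counted with Cell Ranger 7.0.1 on mm10. The authors deposited raw counts, that is UMIs for each gene in each called barcode, without normalization. The 32285 gene rows carried 32245 symbols, and rows of 1 symbol were summed. Barcodes needed 200 genes or more and 20% mitochondrial UMIs or less. Scrublet called 5 of 7134 (0.0701%), too few for a working caller, so doublets remain among the 7129 cells kept.

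Cells were clustered in scanpy 1.11.5 (Python 3.11.15; Leiden, resolution 1, 2000 variable genes without the members and pathway genes, 30 components, 15 neighbours). A name needed at least 3 raised markers (2-fold over the median cluster, 10 CPM, 10% of cells) and 25% of a list, with the next list at 70% of that share or less; leukocytes were clustered again with 10 components. UMIs were summed per class and library. Intervals were exact Poisson (levels), Clopper-Pearson (shares) and conditional binomial (ratios), from SciPy 1.17.1. Those of ratios were tested on simulated independent Poisson counts, which cannot show their coverage where a few barcodes hold most UMIs. For a fold, 0 UMIs were replaced by 3, which is also the upper limit given beside a 0. A class entered a comparison from 20 cells per library upward. Of each list, up to 4 genes per comparison could be named, those at least 1.5-fold apart whose interval bound lay farthest from 0. Members and lists were chosen with earlier results of these data known. Alternatives changed the total, filter, clustering, weighting of cells or classes, fold, UMI minimum and top barcode.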

Additional observations from a re-analysis of the deposited data

Results flagged for a closer look

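The Spp1 log2 ratio of metformin had opposite signs with and without disease. Its log2 ratio was −2.87 for disease with metformin against disease and 5.04 for metformin against healthy gingiva. It is listed because the only library of each group went the opposite way, and the difference was not tested. Between them, the 4 libraries held Spp1 in 6, 15, 12 and 1 cells (disease with metformin, disease, metformin, healthy), and the healthy library had 2 UMIs. Schwann-like cells held 97 of the 118 UMIs with metformin, from 10 cells of the class against 1 in healthy gingiva. Leukocyte-like cells held 180 of the 255 UMIs in disease, with 118 and 55 in single cells. The part of these cells in the opposite signs was not tested.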

How the results depend on the processing

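No paired analysis was possible because each group was 1 library with no replicate number, and no library could be left out. Of 40 recomputed counts of members, 35 stayed within 1.5 times. Calling at 2-fold left 1 member in disease with metformin against disease and 2 in disease with metformin against metformin. In metformin against healthy gingiva there were 4 with every cell weighted equally, 1 without the top barcodes and 1 at a minimum of 50 UMIs. Of recomputed log2 ratios that were at least 1.5-fold apart as reported, 4 reversed: with classes weighted equally, Csf1 in disease with metformin against disease was 0.31, Tnfrsf11b in metformin against healthy gingiva 0.12 and Il34 in disease with metformin against metformin 1.33, and without the top barcodes Tnfrsf11b in metformin against healthy gingiva was 0.16. Ratios reported as under 1.5-fold changed sign too, among them Tnfrsf11a in metformin against healthy gingiva (0.68 with classes weighted equally), Il34 in metformin against healthy gingiva (−1.02) and in disease against healthy gingiva (−0.53) with every cell weighted equally, and Tnfrsf11b in disease with metformin against disease, which kept its sign in 4 of 8. The cause was not tested. Equal weighting gave no value for Spp1 against healthy gingiva, where its classes held 0. At resolution 0.5 there was no Cnn1-led cluster, and the cluster led by Ltf held 42.4% of Csf1 and 75.6% of Tnfrsf11b UMIs. Naming each cell by its own markers leaves no unnamed cluster, so it cannot show whether the Cnn1-led or Ltf-led cluster keeps its share. By that naming, pericyte-like cells held 26.4% of Csf1 UMIs and keratinocyte-like cells 52.8% of Tnfrsf11b UMIs. By own markers, keratinocyte-like cells held 44.7% of Il34 and gland-like cells 76.6% of Tnfrsf11a UMIs. Without the 50 genes with most UMIs in the total, restraining genes apart were 1 in disease against healthy gingiva and 4 in disease with metformin against disease, receptors 2 in that comparison, and signal carriers 5 in disease with metformin against metformin. With only barcodes holding Malat1 and mitochondrial UMIs, 1 effector gene was apart in metformin against healthy gingiva. Shares of cells with a UMI moved in 30 of 48 recomputations, by thinning or a 2-UMI minimum. The alternative without barcodes found in 2 libraries was added after seeing the data.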

Other observations

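Among genes best known from bone cells, Acp5 and Runx2 were mostly in epithelium here. Others were not: Ctsk and Ibsp lay mostly in fibroblast-like cells and Dcstamp in leukocyte-like cells. Acp5, the tartrate-resistant acid phosphatase used to stain osteoclasts, had 4691 UMIs in 1772 cells, 2906 of them in keratinocyte-like and 1469 in gland-like cells, and 90 in leukocyte-like cells. Runx2, a transcription factor of osteoblasts, had 3634 UMIs, 2645 of them in gland-like cells. Ibsp, a matrix protein of bone and cementum, had 19 UMIs, all in 1 fibroblast-like cell of the metformin library. These genes were chosen after their values were seen.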
